A study of Oryza sativa with 6 samples.

Results

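The small RNAs described here are 69 sequences that the study matched to miRNAs of other plants rather than to known rice miRNAs. They were chosen by name, length and abundance: an entry named after another plant's miRNA family, at least 20 nt long, with at least 100 reads summed over the 6 libraries. This gave 71 entries of 739 other-plant matches and of 1898 entries in all, the rest being 464 known rice miRNAs and 695 predicted miRNAs. Among the 71 entries, 4 shared 2 sequences, and each such sequence was counted once, with the entry that had more reads. Because read counts chose the members, their abundance is given as a description only. Just inside the limit on reads were MIR1423-y with 105 reads and MIR1873-x with 103, and just outside were MIR1871-y with 99 and MIR1878-x with 96. The limit on length kept MIR812-x (20 nt, 1068 reads) and MIR165-y (20 nt, 238 reads) and left out MIR894-x (19 nt, 8362 reads) and MIR160-x (19 nt, 547 reads). A further 258 other-plant matches of 20 nt or longer had fewer than 100 reads, and 14 shorter ones had at least 100.

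The 6 libraries were the indica rice line 9311 (PC, susceptible to the brown planthopper, BPH, Nilaparvata lugens) and a line carrying the wild-rice resistance gene BPH15 in that background (P15), each at 0, 6 and 48 h. The 0 h plants were not infested, and the others had been fed on by BPH for the time given. The labels describe leaf sheath from plants at the stage of 4 leaves, 3 weeks old, whereas the study's methods describe younger seedlings and stems, so the age and the tissue are uncertain. Each library was a pool of plants and each condition had 1 library, so there were no replicates. P15 is a single introgression line, and an effect of BPH15 cannot be told apart from that of other introgressed DNA. Library totals, the sums to which the deposited TPM values (reads per 1000000 of that total) refer, lay between 1078716 and 1644065 reads. At these depths an entry with 0 reads could have a true count of up to 3, that is 1.82 to 2.78 TPM. The P15-6 library stood apart: its TMM factor, a scaling factor set from the bulk of the entries, was 0.800, and the other 5 lay between 0.986 and 1.10. With library totals the median log2 ratio of all entries with at least 100 reads was -0.36 in P15-6/P15-0 and -0.33 in P15-6/PC-6, and with TMM it was 0.09 and 0.01. Ratios that involve P15-6 are to be read against that shift.

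Plant miRNAs are cut by a Dicer-like enzyme from a hairpin precursor as a duplex, and the strand kept by an Argonaute protein guides cleavage or repression of mRNAs with a closely complementary site. The bases near the 5′ end, here called the seed and taken as bases 2 to 8, contribute most to target choice, and the 5′ base and the length affect which Argonaute takes up the strand. A precursor can also release isomiRs, sequences that start or end a few bases from the annotated miRNA. Canonical plant miRNAs are mostly 21 nt long, while rice also has 24-nt miRNA-like RNAs, several of them from inverted repeats and transposons. Families such as miR156, miR159, miR166 and miR396 are conserved across land plants and target transcription factors of development, whereas families with high numbers are often known from a single species or genus.

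Sequences are shown for members that the results turn on. Bases are RNA as read from the deposited table, 5′ to 3′, and capitals mark the seed. The first set shows the miR166 type, in which members differ from rice miR166a-3p and miR166l-3p only by where they start and end or by a few bases.
osa-miR166a-3p: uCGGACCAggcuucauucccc
MIR166-y: gCUCGGACcaggcuucauucc
MIR166-z: uAUCGGACcaggcuucauucc
MIR165-y: uCGGACCAggcuucuucccc
osa-miR166l-3p: uCGGACCAggcuucaaucccu
MIR5168-y: uCGGACCAggcuucaaucccuuc
The second set shows a rice sequence with 2 further bases at its 3′ end, and rice sequences with a later start, in which the seed moves.
osa-miR159a.1: uUUGGAUUgaagggagcucug
MIR159-y: uUUGGAUUgaagggagcucuguu
osa-miR168a-5p: uCGCUUGGugcagaucgggac
MIR168-x: uCGCUUGGugcagaucgggaccu
osa-miR827: uUAGAUGAccaucagcaaaca
MIR827-y: aGAUGACCaucagcaaacaag
osa-miR396f-5p: uCUCCACAggcuuucuugaacu
MIR396-x: uCCACAGGcuuucuugaacuuc
The third set shows members with base differences from the rice family of the same number, chosen because their levels are set beside those of the rice entry.
osa-miR812a: gACGGACGguuaaacguuggac
MIR812-y: aAGACGGAcggucaaacauuggac
osa-miR5073: gUUUGGUGaaucggaaacuauuu
MIR5073-x: gUUUGGUGaaucggaaacuuuuuuc
osa-miR529b: aGAAGAGAgagaguacagcuu
MIR529-x: aGAAGAGAgagaguacagcca
osa-miR1862a: aCGAGGUUgguuuauuuugggacg
MIR1862-y: uACGAGAUugguuuauuuugagac
Last come a pair of members with no rice family of their number in the table, shown for their differences between times.
MIR9774-y: aGCAAGAUauuggguauuucuu
MIR9777-y: gUAGCAAAuauaucugagcaca

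The 69 sequences carried 58 family numbers, of which 45 also had a known rice entry in the table and 13 did not. Of the 55 members with a rice family of their number, 0 were identical to a rice entry. When each was laid without gaps on every rice entry of its number, 19 had no mismatch to the nearest one over the overlap (at least 16 bases), 11 had 1 mismatch, 22 had 2 and 3 had more. All 19 without a mismatch differed from the rice entry at an end: the larger of the offsets at the 5′ and 3′ ends was at least 2 bases in each. Of these, 10 began at the same base and ran 2 bases further at the 3′ end, among them MIR159-y, MIR168-x, MIR166-x, MIR162-y and MIR1425-x. The other 9 began elsewhere, 4 upstream and 5 downstream of the rice start, at offsets from -2 to 3 bases. MIR166-y and MIR166-z both began 2 bases upstream of miR166a-3p, and MIR827-y and MIR396-x began 2 bases downstream of their rice entry.

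The seed was the same as that of the nearest rice entry in 24 of the 55 members, and as that of any rice entry of the family in 27. Over all 69 sequences, 29 had the seed of some known rice miRNA. The members had 67 different seeds, and only 2 of these were shared, CGGACCA by MIR5168-y and MIR165-y and GAAGCUG by MIR5150-y and MIR167-x. CGGACCA is also the seed of rice miR166a-3p, which guides cleavage of HD-ZIP III transcription factor mRNAs, whereas MIR166-y (CUCGGAC) and MIR166-z (AUCGGAC) had other seeds. The run TCGGACCAGGCTTC was the longest common to the 4 members MIR166-y, MIR166-z, MIR5168-y and MIR165-y. On either strand it occurred in 4 of 69 members (5.80%) and in 8 of 1276 distinct sequences of 20 nt or longer in the table (0.627%). Because the run was taken from these 4 members, their share was fixed by that choice and shows no enrichment.

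Among the 14 members with no rice family of their number, 3 lay within 2 mismatches of some known rice miRNA and 11 did not. MIR5168-y was rice miR166l-3p with 2 more bases at the 3′ end and no mismatch. MIR165-y, named after a family that in Arabidopsis targets the same HD-ZIP III mRNAs as miR166, differed from miR166a-3p by A15U and U17C without gaps (positions count from 1 at the 5′ end of the rice miRNA, with the rice base first), or by an edit distance of 1 when a gap was allowed. MIR5205-x overlapped miR818c by 17 bases with U12A and A14U.
The run ACTCCCTCCGT was the longest common to MIR1133-x, MIR1436-y and MIR5205-x when read on either strand. It is shown in capitals in these 3, since such runs are known from the ends of Stowaway-type miniature transposons of grasses.
MIR1133-x: uuauACUCCCUCCGUcccaaa
MIR1436-y: uacauuaugaaACGGAGGGAGUa
MIR5205-x: cuuauaauuugggACGGAGGGAGU
These 3 were 4.35% of the members, and 9 of the 1276 distinct sequences of 20 nt or longer (0.705%) held the run. Here too the run was taken from the members that hold it, so their share shows no enrichment. None of the 69 sequences was identical to a predicted miRNA of the study, and 2 ended in CCA, the end of mature tRNAs. These were MIR2877-y and MIR529-x, the latter with the start and seed of rice miR529b. Whether either is a tRNA fragment was not tested. Where the members lie in the rice genome was not analysed here.

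In length the members differed from the known rice miRNAs of at least 100 reads. Of the 69, 16 were 23 nt long (23.2%, Wilson 95% interval 14.8 to 34.4%), against 1 of 147 distinct known rice sequences (0.680%, 0.120 to 3.75%). Of the 10 members that extended a rice sequence by 2 bases, 9 were 23 nt. Sequences of 21 nt made up 18 of the members (26.1%, 17.2 to 37.5%) and 87 of the known rice sequences (59.2%, 51.1 to 66.8%). Those of 24 nt numbered 19 (27.5%, 18.4 to 39.0%), near the 35 of 147 among the known rice sequences (23.8%, 17.6 to 31.3%). The first base was U in 33 of 69 (47.8%, 36.5 to 59.4%), in 73 of 147 known rice sequences (49.7%, 41.7 to 57.6%) and in 44 of 76 predicted ones (57.9%, 46.7 to 68.4%), and these intervals overlap. The known rice names also fixed the meaning of the suffixes: 11 of 11 x members whose nearest rice entry names its arm matched a 5p entry, and 8 of 8 y members and 1 of 1 z members matched a 3p entry. In 10 families both an x and a y member were present. In MIR6225, which has no rice family in the table, 17 of 19 facing bases of the x and y members could form Watson-Crick pairs, and in MIR166 15 of 21 could. In MIR812 and MIR167 only 9 of 20 could, and in MIR156 10 of 22. The search allowed no bulges and these counts leave out G:U pairs. They therefore cannot tell whether an x and a y member are arms of the same duplex.

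All 69 members were read in every library, the lowest count being 8. The members together had 63697 reads, and their share of the library total ran from 0.742% in PC-48 to 0.855% in PC-0. MIR166-y and MIR812-y made up 47.9% of these reads, the median member had 248 reads over the 6 libraries, and 11 had at least 1000. The level of MIR166-y at 0, 6 and 48 h was 2145, 2170 and 2081 TPM in PC and 2033, 2249 and 2062 TPM in P15. It was the highest member in every library, and its 6 levels lay closer together than those of MIR812-y, the second. MIR812-y, a 24-nt member of a family known from rice repeats, stood at 1990, 1710 and 1542 TPM in PC at 0, 6 and 48 h. In P15 it stood at 1691, 1553 and 1499 TPM. The third, MIR159-y, of the family that targets GAMYB-type transcription factors, ranged from 373 (PC-6) to 471 TPM (PC-0).

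**Figure D1:**
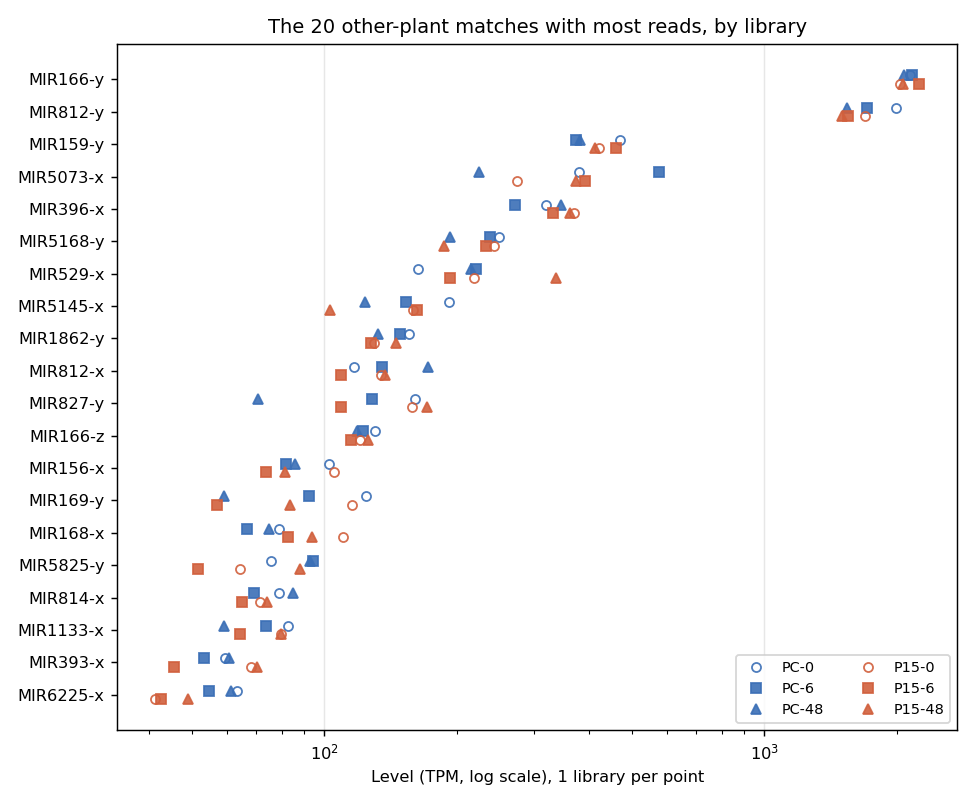
Level of the 20 members with most reads (rows) in TPM on a log scale, 1 point per library, with PC and P15 in different colours and open points for 0 h. MIR166-y and MIR812-y lie at or above 1499 TPM in all 6 libraries, and the points of a member mostly lie close together.

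A target group was listed for the families of 25 members with 32996 reads. For the other 44 members, with 30701 reads, none was listed, and they include MIR5168-y, the miR166l-3p form with the miR166 seed. Groups were set by family number alone, whichever arm of the hairpin a member matched. MIR166-x lay nearest to miR166a-5p, MIR168-y to miR168a-3p, MIR156-y to miR156g-3p and MIR396-y to miR396f-3p. Whether members of these arms act on the targets of their family was not tested. By number, the HD-ZIP III group of MIR166-y, MIR166-z, MIR166-x and MIR165-y had 18641 reads, most of them MIR166-y. MIR159-y and MIR319-y, whose families target MYB and TCP transcription factors, had 3763 reads together. MIR396-x and MIR396-y, whose family acts on mRNAs of growth-regulating factors, had 2842, and MIR529-x, MIR156-x and MIR156-y, of families that target SPL transcription factors, had 2781. MIR827-y, of the family that targets SPX-domain proteins of phosphate homeostasis, had 1060. MIR168-x and MIR168-y, whose family targets the Argonaute AGO1, had 928, and MIR162-y, whose family targets the Dicer-like enzyme DCL1, had 212.

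Beside the nearest rice entry of the same number, all 19 members without a mismatch were the minor form, and many members with mismatches were not. Of the 55 members with a rice family, 20 had more reads over the 6 libraries than the nearest rice entry. None of the 19 without a mismatch did: their share of the reads of both ranged from 0.0226% (MIR166-z) to 34.3% (MIR169-x), with a median of 4.74%. Among the 36 with at least 1 mismatch the median share was 79.7%. Against the summed distinct sequences of the whole rice family the median shares were lower, at 1.62% without a mismatch and 37.2% with mismatches, and 17 members still exceeded the family. Of the 16 members of 24 nt with a rice family, 11 had more reads than the nearest rice entry. The members were chosen for at least 100 reads and the rice entries were not, which raises all these shares and counts. They are given as a description only. Whether the same read was also counted under a rice entry cannot be read from the table, and the summed entries of a library were 3.60 to 3.88 times its total.

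Members with more reads than their rice entry often stood beside an entry with few reads. MIR812-y had 13388 reads and its nearest rice entry, miR812a, had 23, with U11C and G16A between them. MIR812-y also starts 2 bases further upstream. MIR5073-x had 2961 reads against 20 of miR5073, which it matched from the same first base with A20U and 2 further bases. MIR5160-y had 352 reads against 1 of miR5160, with U10C and 1 further base at each end. MIR529-x had 1769 reads against 313 of miR529b, with the same seed and a 3′ end changed by U20C and U21A. In MIR166-z the difference ran the other way and was wider, with 978 reads beside 4335571 of miR166a-3p. Likewise MIR166-y had 17105 reads beside the same entry, a share between 0.369% (PC-48, exact 95% interval 0.356 to 0.384%) and 0.410% (PC-0, 0.395 to 0.425%) in each library. MIR827-y took 10.6%, 9.87% and 9.32% of its pair with miR827 in PC at 0, 6 and 48 h and 12.1%, 13.7% and 12.0% in P15. These intervals cover counting error only, since the reads carry no molecular identifiers.

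**Figure D2:**
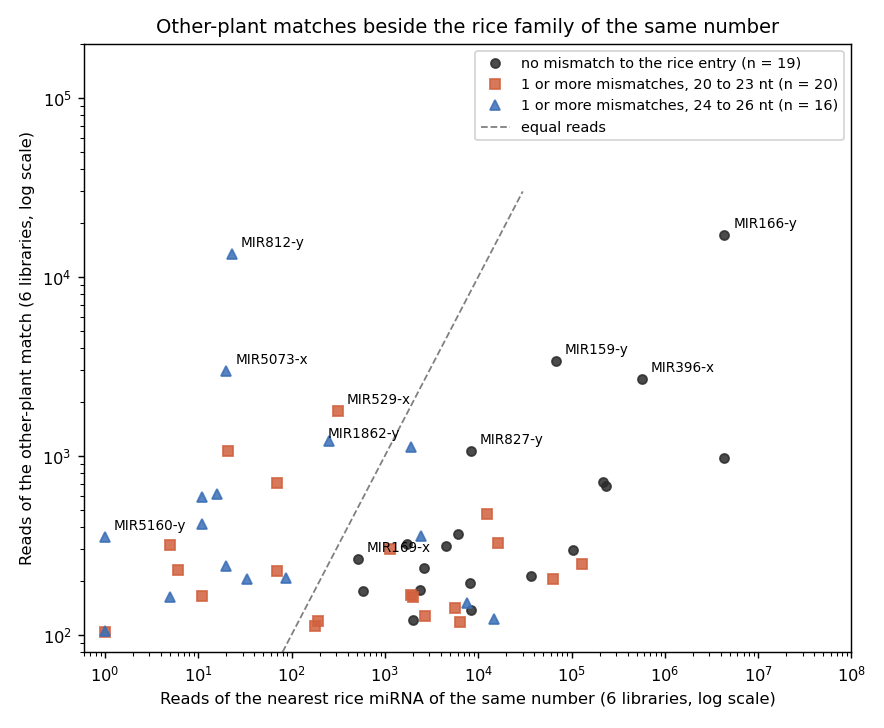
Reads over the 6 libraries of each of the 55 members with a rice family (vertical, log scale) against reads of the nearest rice entry of the same number (horizontal, log scale), by mismatch and length. All 19 members without a mismatch lie to the right of the dashed line of equal reads, and 20 members with mismatches lie to its left.

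A member and its rice entry could also differ between the lines, as in MIR1862-y. This 24-nt member differs from rice miR1862a by G6A and G20A, starts and ends 1 base further upstream and has another seed. MIR1862-y stood at 156.3, 149 and 132 TPM in PC and at 130, 128 and 146 TPM in P15 at 0, 6 and 48 h. The rice entry miR1862a stood at 19.4, 8.74 and 20.3 TPM in PC and at 374, 567 and 342 TPM in P15. The lines did not overlap for the rice entry and overlapped for the member. The share of MIR1862-y in the pair was 89.0%, 94.4% and 86.7% in PC and 25.8%, 18.4% and 29.8% in P15. For MIR529-x, of the SPL-targeting type, the level was 163.7, 222 and 216 TPM in PC and 219, 193 and 336 TPM in P15, and that of miR529b was 23.8, 27.0 and 20.3 TPM in PC and 49.8, 34.7 and 86.2 TPM in P15. The rice miR529b levels did not overlap between lines, while those of MIR529-x did, and both were highest in P15-48. The pairs shown here are examples chosen after their levels were seen. How often the lines separate in this way among the other pairs, or among all entries, was not counted. Whether these contrasts are unusual therefore cannot be told.

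**Figure D3:**
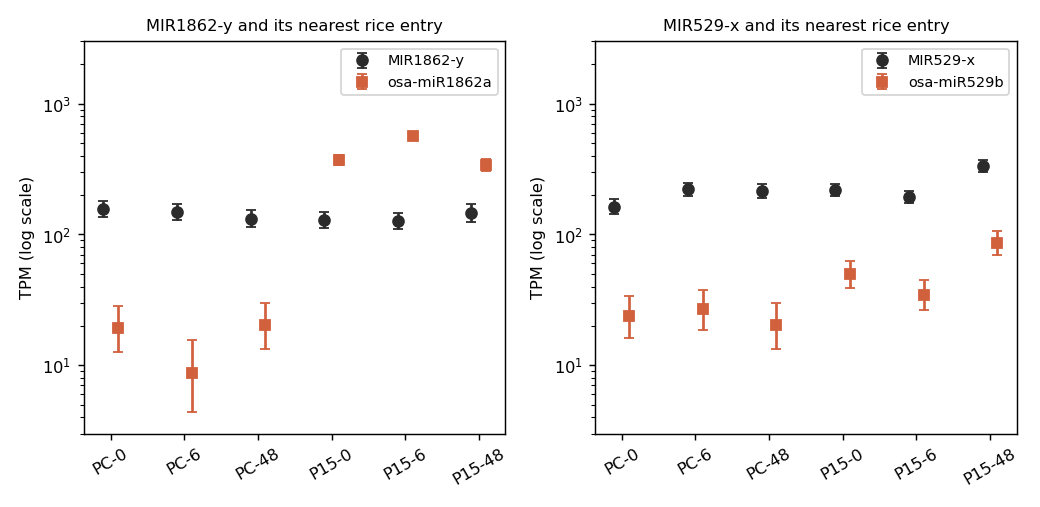
Level (TPM, log scale) in the 6 libraries of MIR1862-y and MIR529-x beside the nearest rice entry of each, with exact 95% counting intervals as error bars. Rice miR1862a lies above 340 TPM in the 3 P15 libraries and below 21 TPM in the 3 PC libraries, while MIR1862-y lies between 127.7 and 156.3 TPM in all 6.

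The lines and times were compared in an additive model of line and time (edgeR quasi-likelihood, TMM scaling, 2 residual degrees of freedom, Benjamini-Hochberg adjustment over all 537 entries that passed the filter on low counts), in which differences between lines in their response count as error. All 69 members passed the filter. For the line effect over the 3 times, 0 of 69 members were called at an adjusted p of 0.05, against 2.98% of all entries tested. At an unadjusted p under 0.05 there was 1 member, MIR1436-y, against 14.0% of all entries, and DESeq2 called 0. MIR1436-y, a repeat-type member, stood at 27.5, 34.2 and 18.7 TPM in PC and at 12.6, 14.0 and 18.5 TPM in P15. Its P15 levels were all below those of PC, though the 48 h levels were nearly equal, and the log2 difference of P15 over PC was -0.74 (SE 0.29, adjusted p = 0.259). The median log2 line effect was 0.03 over the members and -0.02 over all entries tested. With library totals P15 was above PC at all 3 times in 5 members (13.9% of all entries with at least 100 reads) and below it at all 3 times in 15 (20.7%). These counts depend on the scaling, being 8 and 10 with TMM (19.1% and 15.3% of all entries) and 13 and 7 with clean reads (20.9% and 14.4%).

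For feeding at 6 h over both lines, 0 of 69 members were called, against 0.186% of all entries tested, with 3 at an unadjusted p under 0.05 (10.2% of all entries) and 0 called by DESeq2. These 3 were MIR5073-x (log2 0.83, SE 0.27, adjusted p = 0.328), MIR9777-y (-0.99, SE 0.35, adjusted p = 0.328) and MIR2871-x (0.86, SE 0.37, adjusted p = 0.415). MIR5073-x stood at 380 and 576 TPM in PC-0 and PC-6 and at 274 and 391 TPM in P15-0 and P15-6, the 6 h level being above the 0 h level by more than counting error in both lines and under each of 4 scalings. MIR9777-y, whose number is known from wheat, stood at 23.1 TPM in PC-0 and 25.9 in P15-0 and at 11.1 and 9.12 TPM in PC-6 and P15-6. The 2 libraries without feeding were its highest.

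For feeding at 48 h over both lines, 0 of 69 members were called, against 2.05% of all entries tested, with 5 at an unadjusted p under 0.05 (18.8% of all entries) and 0 called by DESeq2. The nearest to the threshold was MIR9774-y, a 22-nt member also numbered after wheat, at 38.7, 42.9 and 70.9 TPM in PC and 42.1, 24.3 and 86.2 TPM in P15 at 0, 6 and 48 h. Its 48 h libraries were the highest in both lines, and the log2 effect was 1.07 (SE 0.30, adjusted p = 0.0551). Its adjusted p was 0.0388 with median-of-ratios scaling and 0.00305 without PC-6, and without each of the other 5 libraries in turn it lay between 0.0555 and 0.838. MIR399-y (log2 -1.0, SE 0.38, adjusted p = 0.126), MIR9777-y (-0.88, SE 0.35, adjusted p = 0.150) and MIR169-y (-0.64, SE 0.29, adjusted p = 0.210) were lower at 48 h, and MIR529-x was higher (0.62, SE 0.26, adjusted p = 0.168). MIR399-y, whose family targets the ubiquitin-conjugating enzyme PHO2 of phosphate homeostasis, stood at 20.8, 11.9 and 7.01 TPM in PC and at 21.7, 14.0 and 13.0 TPM in P15. Without PC-6, MIR399-y (adjusted p = 0.0276) and MIR9777-y (adjusted p = 0.0353) were called as well, in a fit that called 68 of all entries in place of 11. Without P15-6, the library that stood apart, the fit again called 0 members for each of the 3 effects. These p-values rest on 6 libraries with 1 per condition and measure no spread between replicates. The error term of each member was also moderated towards all entries tested, with 23.5 prior beside 2 residual degrees of freedom.

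**Figure D4:**
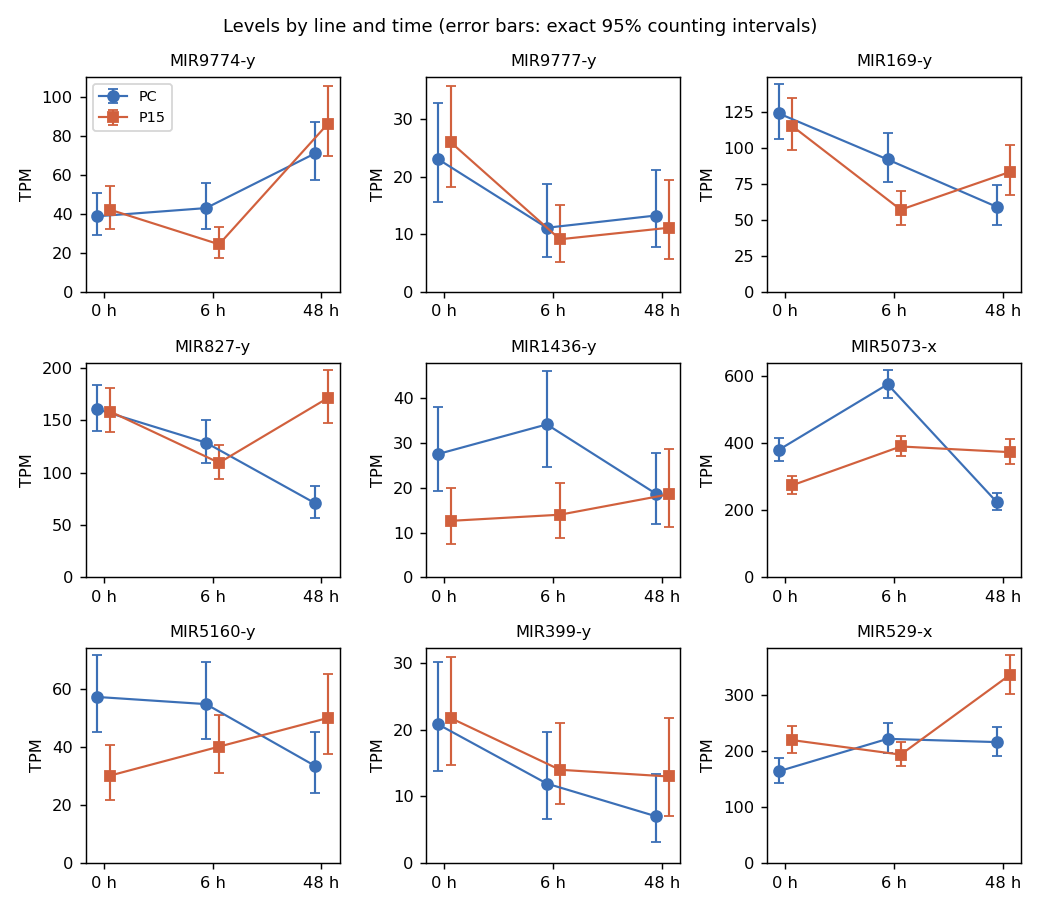
Level (TPM, linear axes from 0) of 9 members at 0, 6 and 48 h in PC and P15, with exact 95% counting intervals as error bars. MIR9774-y is highest at 48 h in both lines, MIR9777-y is highest at 0 h in both, and MIR5073-x and MIR5160-y lie lower at 48 h than at 0 h in PC and higher in P15.

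The 7 pairs of libraries that the design implies were compared by the ratio of TPM with an exact 95% counting interval, and a member was counted where the ratio was at least 2 or at most 0.5 and the interval excluded 1. This is a rule of size and no test. In PC-6/PC-0, 3 of 69 members passed, against 7.31% of all entries with at least 100 reads. They were MIR390-x, of the family that cuts the TAS3 RNA (ratio 0.453, interval 0.224 to 0.870), MIR9777-y (0.482, 0.237 to 0.934) and MIR1441-y (0.497, 0.277 to 0.863). All 3 were lower (7.08% of all entries), and only MIR390-x stayed past the limit under TMM, median-of-ratios and clean-read scaling. With TMM MIR2871-x also passed, as higher (2.01, 1.03 to 4.09). The rice miR390-5p ratio was 0.661 (0.603 to 0.726).

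In PC-48/PC-0, 4 of 69 passed, against 13.0% of all entries, and all 4 were lower (11.3% of all entries). MIR399-y had 28 reads at 0 h and 9 at 48 h (ratio 0.337, 0.140 to 0.734), and miR399a had 42 and 19 (0.474, 0.260 to 0.833). MIR827-y had 216 and 91 reads (0.441, 0.341 to 0.566), and miR827 had 1815 and 885 (0.511, 0.471 to 0.554). In both phosphate-related families the member and the rice entry were lower in PC-48 than in PC-0. MIR1423-y (0.428, 0.174 to 0.968) and MIR169-y (0.477, 0.358 to 0.629) passed with library totals and not with TMM. Their TMM ratios were 0.478, with an interval that reached 1, and 0.531. MIR169-y carries the number of the family that targets NF-YA transcription factors. Laid without gaps, it had 9 mismatches over 17 bases to its nearest rice miR169 entry. Facing MIR169-x, it could form 12 Watson-Crick and 4 G:U pairs over 20 bases. Whether it is the other arm of a miR169 hairpin was not tested. With TMM MIR9774-y passed as higher (2.04, 1.44 to 2.93).

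In P15-6/P15-0, 3 of 69 passed, against 12.9% of all entries, all lower. MIR9777-y had a ratio of 0.352 (0.179 to 0.656) and passed under every scaling. MIR168-y (0.441, 0.276 to 0.690) and MIR169-y (0.494, 0.379 to 0.640) passed with library totals only, their TMM ratios being 0.602 and 0.675. With TMM MIR394-x passed as higher (2.13, 1.09 to 4.31), so 1 member was higher and 1 lower. The rice entry nearest to MIR168-y, miR168a-3p, had a ratio of 0.429 (0.421 to 0.438). In P15-48/P15-0, 5 of 69 passed, against 8.71% of all entries. MIR394-x (2.29, 1.17 to 4.65), MIR1425-x (2.18, 1.43 to 3.37), MIR2871-y (2.13, 1.14 to 4.07) and MIR9774-y (2.05, 1.47 to 2.88) were higher (4.0% of all entries), and with clean reads as totals their ratios lay between 1.58 and 1.76 and none of the 4 passed, which left 0 members higher and 7 lower. MIR9777-y was lower (0.429, 0.204 to 0.841; 4.71% of all entries were lower) under every scaling. The nearest rice entries had ratios of 1.13 (0.989 to 1.29) for miR394, 1.49 (1.46 to 1.52) for miR1425-5p and 0.991 (0.847 to 1.16) for miR2871a-3p.

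Between the lines, 1 of 69 passed in P15-0/PC-0, against 4.0% of all entries: MIR1436-y, with a ratio of 0.458 (0.246 to 0.826), where 0.941% of all entries were lower. In P15-6/PC-6 the same member was the 1 of 69 that passed, against 11.3% of all entries and 9.41% lower, with a ratio of 0.410 (0.236 to 0.695) that became 0.518 with TMM and no longer passed. With TMM the member that passed was MIR1441-y, higher in P15 (2.03, 1.17 to 3.65), so the direction in this pair depends on the scaling. In P15-48/PC-48, 4 of 69 passed, against 6.35% of all entries. MIR827-y was higher in P15 (2.42, 1.87 to 3.14; 185 against 91 reads), and so was miR827 (1.83, 1.68 to 1.99). MIR1423-y (2.38, 1.02 to 6.01) and MIR1876-y (2.28, 1.09 to 5.03) were also higher (5.18% of all entries), with 18 and 23 reads in P15-48 and 9 and 12 in PC-48. Neither passed with clean reads as totals, where MIR827-y did (2.12, 1.64 to 2.76). MIR1873-x was lower, with 8 reads in P15-48 and 25 in PC-48 (0.381, 0.148 to 0.871; 1.18% of all entries were lower). With library totals the share of members past the limit in either direction was 4.35%, 5.80%, 4.35%, 7.25%, 1.45%, 1.45% and 5.80% in the order given, below that of all entries in each of the 7 pairs. It was not below in P15-48/P15-0 with TMM or median-of-ratios (7.25% against 7.06%), nor in PC-6/PC-0 with identical sequences counted once among all entries (4.35% against 3.63%). Passing also depends on read depth, which was not matched between members and all entries.

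**Figure D5:**
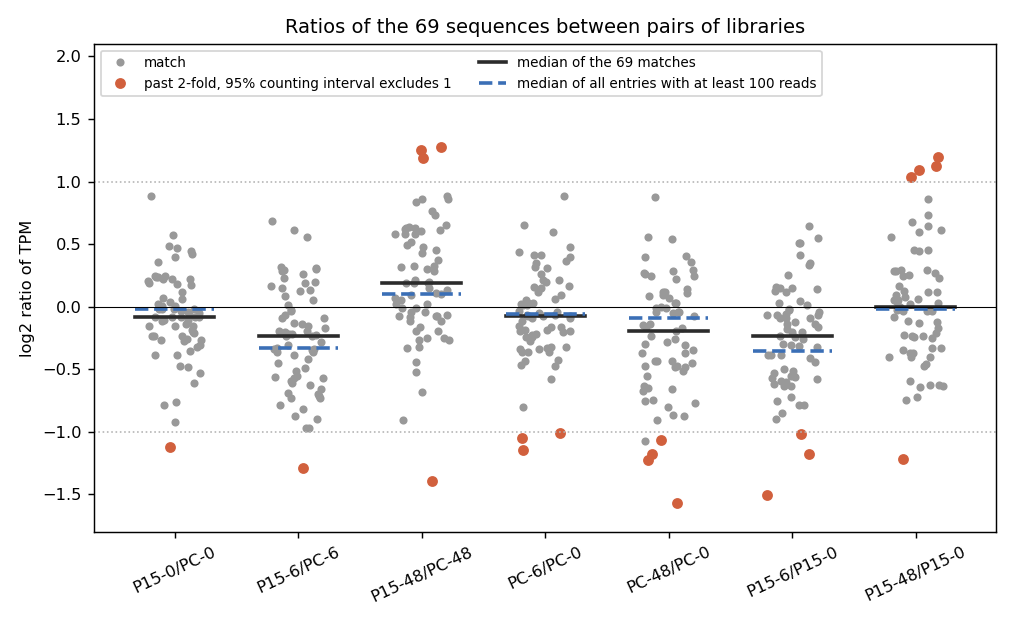
Log2 ratio of TPM of each of the 69 members in the 7 pairs of libraries (library totals), with members past 2-fold and beyond counting error in colour, and medians of the members (solid) and of all entries with at least 100 reads (dashed). Between 1 and 5 members pass in each pair, and the dashed median lies below -0.3 in the pairs P15-6/PC-6 and P15-6/P15-0.

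The medians of the members were set beside those of all entries with at least 100 reads. With library totals the median log2 ratio of the members and of all entries was -0.09 and -0.02 in P15-0/PC-0, -0.07 and -0.06 in PC-6/PC-0 and -0.20 and -0.09 in PC-48/PC-0. In P15-48/P15-0 they were 0.00 and -0.02, and in P15-48/PC-48 0.19 and 0.10. In P15-6/P15-0 they were -0.23 and -0.36, and with TMM 0.22 and 0.09. In P15-6/PC-6 they were -0.23 and -0.33, and with TMM 0.10 and 0.01. The direction in both pairs with P15-6 therefore depends on the scaling, and so does that of the members in PC-6/PC-0, where TMM gave 0.05. Other medians changed sign too. With TMM that of all entries was 0.06 in both PC-6/PC-0 and PC-48/PC-0. In P15-48/P15-0 TMM gave 0.06 for the members and 0.05 for all entries. In P15-48/PC-48 clean reads as totals gave -0.001 and -0.09, and in P15-0/PC-0 they gave 0.06 for all entries.

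The responses of both lines were also set side by side for each member. Lying beyond counting error depends on the number of reads, which was not matched between members and all entries. The median member had 248 reads, and the 425 entries with at least 100 reads held 304 distinct sequences. The shares below are therefore no measure of how strongly the members responded. At 6 h, 6 of 69 members lay on the same side of the 0 h level in both lines beyond counting error with library totals, against 22.2% of all entries. MIR5073-x (higher) kept this under all 4 scalings, MIR169-y and MIR9777-y (lower) under 3, and MIR812-y, MIR827-y and MIR156-y under library totals only. At 48 h there were again 6, against 28.3% of all entries, of which MIR9774-y and MIR529-x (higher) and MIR5145-x and MIR169-y (lower) kept it under all 4 scalings and MIR812-y and MIR5168-y (lower) under 3. MIR5168-y, the miR166l-3p form, stood at 249, 238 and 193 TPM in PC and 243, 233 and 187 TPM in P15, with 48 h over 0 h ratios of 0.775 (0.655 to 0.916) and 0.772 (0.646 to 0.921). Its levels in both lines were nearly the same at each time. MIR5145-x, a 24-nt member, had 48 h over 0 h ratios of 0.645 (0.526 to 0.789) in PC and 0.646 (0.510 to 0.815) in P15.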

How the data were processed

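Small RNA libraries were read once per condition, and the authors deposited, for each entry, its sequence, raw read counts and TPM. Their deposited TPM is the count per 1000000 of a library total, with 0 written as 0.01, and replaced here by the true ratio. Reads had been matched by the authors to miRBase release 21; the aligner, the mismatches allowed and the sharing of reads among entries were not given in the sources used here. Per the labels, the authors used edgeR; no version is named. Library totals were recovered from counts and TPM (entries with at least 50 reads). Depth was 1078716 to 1644065 reads per library, and intervals cover counting error only. Members were the entries named in the opening. Each was aligned without gaps, end shifts allowed, to known rice entries. The counts as deposited were fitted with edgeR 4.0.16 (limma 3.58.1, R 4.3.3; TMM, filterByExpr, quasi-likelihood F test, additive line and time), checked on simulated counts. Pairs used exact conditional binomial intervals (scipy 1.17.1). DESeq2 1.42.0, other scalings (clean reads from the study's read summary among them), no filter, a 1.5-fold limit, limits of 50 and 300 reads, identical sequences once and each library left out were alternatives. Members named are the 20 with most reads, those called or past the fold, MIR5168-y, and those next to the limits; others named to illustrate a kind were chosen after their values were seen. Target roles are textbook background. Members and lists were chosen with earlier results of these data known.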

Additional observations from a re-analysis of the deposited data

Results flagged for a closer look

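In 2 members the 48 h libraries lay on opposite sides of the 0 h libraries in the lines, beyond counting error in each line, against 4.01% of all entries with at least 100 reads. MIR5073-x had a ratio of 48 h over 0 h of 0.592 (exact 95% counting interval 0.511 to 0.686) in PC and 1.36 (1.18 to 1.57) in P15. MIR5160-y had a ratio of 0.585 (0.393 to 0.860) in PC and 1.66 (1.09 to 2.54) in P15. The differences between the lines were not tested, since each condition had 1 library. With clean reads as totals the P15 ratios were 1.05 (0.910 to 1.21) and 1.28 (0.840 to 1.95), which no longer exclude 1. At 6 h, 33 of 69 members lay on opposite sides in the lines with library totals (41.7% of all entries), as did 28 at 48 h (33.3%). At 6 h 0 of them did so beyond counting error in both lines, where 31 of 424 entries did, and with TMM 2 of 69 members and 42 of 424 entries did. Counts beyond counting error depend on read depth, which was not matched between members and all entries.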

How the results depend on the processing

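Counts of members called moved as follows. Leaving out 1 library at a time gave 0 to 1 members for the line effect (1 without PC-48, MIR1436-y, adjusted p = 0.0390), 0 to 1 for 6 h (1 without P15-48, MIR5073-x, adjusted p = 0.0481) and 0 to 3 for 48 h (3 without PC-6). Median-of-ratios factors in edgeR gave 1 member at 48 h. Past the fold, median-of-ratios scaling gave 1 member in PC-6/PC-0 and 2 in PC-48/PC-0, and clean reads as totals gave 1 in P15-6/P15-0 and 2 in P15-6/PC-6. A limit of 1.5-fold gave 13 in PC-48/PC-0 (22.9% of all entries), 7 in P15-6/P15-0 (29.2%), 9 in P15-48/P15-0 (26.6%), 5 in P15-0/PC-0 (11.5%), 10 in P15-6/PC-6 (30.4%) and 8 in P15-48/PC-48 (14.6%). Of the 21 calls past 2-fold, 8 held under all 3 other scalings and 3 under none. The median share beside the nearest rice entry was 12.8% and became 4.96% against the whole family. None of the members' log2 effects with an unadjusted p under 0.05 changed sign, nor did any ratio past 2-fold. Smaller effects and ratios could change sign, as the MIR812-y ratio in P15-6/P15-0 did, from 0.918 to 1.25 with TMM. Under at least 1 other scaling the members' median ratio changed sign in every pair except P15-0/PC-0 and PC-48/PC-0. In P15-48/P15-0 the members past the limit went from 4 higher and 1 lower to 0 and 7 with clean reads. Over all entries, the line effect had 16 calls, and 8 with identical sequences once, 9 without P15-6. The 6 h effect had 1, and 5 with median-of-ratios or with no filter, 0 without TMM, with DESeq2 or with identical sequences once, and 0 to 8 leaving out 1 library. The 48 h effect had 11, and 17 with median-of-ratios, 1 with DESeq2, 0 without TMM or with identical sequences once, and 1 to 68 leaving out 1 library (68 without PC-6). With identical sequences once, entries past 2-fold numbered 11 in place of 31 in PC-6/PC-0 and 34 in place of 55 in PC-48/PC-0. In P15-6/P15-0 they numbered 26 with TMM and 21 with median-of-ratios or clean reads in place of 55, in P15-48/P15-0 81 with clean reads in place of 37, and with 1.5-fold 49 (P15-0/PC-0) to 129 (P15-6/PC-6). The share of these that was higher moved with TMM from 3.23% to 22.2% in PC-6/PC-0, from 7 of 55 to 12 of 48 in PC-48/PC-0, from 0.0% to 42.3% in P15-6/P15-0, from 45.9% to 63.3% in P15-48/P15-0, from 16.7% to 72.5% in P15-6/PC-6 and from 22 of 27 to 20 of 29 in P15-48/PC-48. Clean reads gave 2.47% in P15-48/P15-0, 77.3% in P15-6/PC-6, 55.6% in P15-48/PC-48 and 86.7% in P15-0/PC-0, where library totals gave 76.5%. The causes were not tested. No paired analysis was possible because each condition had 1 library; time was a term of the additive fit, and without it the line effect again had 0 members called.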

Other observations

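The table lists 2 sequences under 2 names with different counts. MIR1133-x had 586 reads and MIR1128-x, with the same 21-nt sequence, had 371, and MIR5801-x had 230 reads and MIR5808-x, with the same 20-nt sequence, had 184. How such reads were divided between names was not analysed here.

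Families with both an x and a y member differed in which of them had more reads. Whether the members of a family come from the same duplex was not settled here. The x member held 94.2% of the reads of the pair in MIR396, 73.3% in MIR168, 70.2% in MIR156 and 61.9% in MIR6225. It held 1.84% in MIR166 and 7.39% in MIR812.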
